A study of Homo sapiens with 8 samples.

Results

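Interleukin-7 is a growth and survival signal for developing lymphocytes, and the 10 genes described here encode its receptor and the pathway behind it. They are IL7R and IL2RG (the receptor chains), JAK1 and JAK3 (kinases), STAT5A and STAT5B (transcription factors), and SOCS1, SOCS2, SOCS3 and CISH (inhibitors). They were chosen by name, as the interleukin-7 receptor chains with the kinases, STAT5 factors and SOCS-family inhibitors of that pathway. All 10 were measured, by 9 of the 17881 transcript clusters (groups of probes that read 1 gene locus) in the table, since STAT5A and STAT5B are read by the same cluster. The clusters are 2806468 (IL7R), 4011844 (IL2RG), 2416522 (JAK1), 3854627 (JAK3), 3757770 (STAT5A and STAT5B, which a further cluster, 3721658, also carries), 3680213 (SOCS1), 3426257 (SOCS2), 3772279 (SOCS3) and 2675504 (CISH).

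The samples were 8 Affymetrix exon arrays of total RNA from cells labelled RS4;11, a B-precursor acute lymphoblastic leukemia line with an MLL fusion. Each of 4 groups held 2 arrays. The cells carried an shRNA against BTG1, an antiproliferative gene, and were given prednisolone (a synthetic glucocorticoid) or vehicle for 8 h, or carried a control shRNA vector and were given prednisolone or vehicle for 8 h. The design asks whether knockdown of BTG1 changes the response to prednisolone. Whether a group's arrays were separate cultures is not stated, so each p-value rests on array-to-array spread that could be purely technical. Values are log2 expression levels, and differences are log2 differences. A gene is called where its limma adjusted p is below 0.05. A cluster is dim in a group where it lies, on both arrays, at or below the 95th percentile of 220 olfactory receptor clusters of that array (3.73 to 4.69), which stands for background.

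The labels were checked against the targeted gene and against lineage markers. The cluster annotated BTG1;LINC01619 read 7.15 to 8.14 on the 4 arrays labelled BTG1 shRNA and 9.34 to 10.70 on the 4 control arrays. On the control arrays it was called higher with prednisolone by 1.26, a call lost in 9 of 13 alternative fits. The arrays labelled BTG1 shRNA also carried a T-lineage profile: limma called 10 of 11 T-cell markers higher on them under either exposure. Of 12 measured B-lineage markers it called 10 lower under prednisolone and 11 under vehicle. Summed on the linear scale, the T-cell markers came to 10230 to 12624 on the arrays labelled BTG1 shRNA and 456 to 865 on the control arrays. The B-lineage markers came to 325 to 343 on the arrays labelled BTG1 shRNA and 7343 to 9761 on the control arrays. T-cell marker CD3D, a T-cell receptor subunit, was dim on all control arrays, and the B-lineage markers CD22 and CD24 were dim on all arrays labelled BTG1 shRNA. The shRNA and the lineage of the cells cannot be told apart in any comparison between the 2 shRNA labels. Of the other marker lists, 0 or 1 gene was called in each comparison between the shRNA labels. In either direction, 17.5% of all clusters were called under prednisolone and 14.7% under vehicle. They held 7 measured myeloid, 6 erythroid or platelet and 10 stromal or epithelial genes, and the called genes were CSF1R (lower under vehicle), GP9 (lower under both) and KRT18 (higher under both). Control vehicle replicate 1 stood apart, with the highest background and 63.2% of clusters above it, against 69.5 to 71.0% on the other arrays.

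The receptor for interleukin-7 pairs IL7R, the chain that gives specificity, with IL2RG, the common gamma chain shared with the receptors for interleukins 2, 4, 9, 15 and 21. JAK1 sits on IL7R and JAK3 on IL2RG. Ligand brings the kinases together, and they phosphorylate STAT5A and STAT5B, which pair, enter the nucleus and bind the letters TTCNNNGAA. CISH, SOCS1, SOCS2 and SOCS3 are transcribed in response to STAT signals and dampen the kinases or the receptors in return. B-cell precursors depend on the pathway in mice, gain-of-function changes in it occur in human acute lymphoblastic leukemia, and glucocorticoids raise IL7R in T cells.

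A pair of promoters is shown because CISH is the classical STAT5 target and because IL7R had the widest differences of the set. They are the 250 bases before the start of each gene from RefSeq (GRCh38.p14), CISH at chr3:50611775-50612024 on the minus strand and IL7R at chr5:35856641-35856890 on the plus strand. Capitals mark the STAT letters TTCNNNGAA in CISH, and in IL7R the ETS letters GGAAGT (here in their reverse form ACTTCC) and the RUNX letters TGTGGT.
CISH: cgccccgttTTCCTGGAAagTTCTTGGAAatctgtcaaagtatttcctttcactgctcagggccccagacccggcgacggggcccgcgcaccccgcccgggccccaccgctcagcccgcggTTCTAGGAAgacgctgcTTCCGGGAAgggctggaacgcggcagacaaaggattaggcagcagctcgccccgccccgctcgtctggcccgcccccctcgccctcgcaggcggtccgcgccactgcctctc
IL7R: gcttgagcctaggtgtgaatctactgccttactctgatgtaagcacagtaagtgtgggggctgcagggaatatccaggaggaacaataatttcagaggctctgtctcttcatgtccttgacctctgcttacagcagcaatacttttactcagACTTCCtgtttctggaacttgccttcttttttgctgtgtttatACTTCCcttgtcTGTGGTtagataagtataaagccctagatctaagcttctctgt
Windows of 250 bases before to 50 after the start were searched on both strands for 9 of the 10 genes, all but SOCS2. CISH held the STAT letters 4 times, with first bases at -241, -230, -129 and -112 from the start, and no other window of these genes held them. Of all 35116 windows, 7.66% held these letters at least once and 7 held them 4 times or more. The IL7R window held ETS letters at -98 and -55, a motif found in 22.8% of all windows, and RUNX letters at -43, found in 13.1%. JAK1 held ETS letters at -60, IL2RG the FOXO letters GTAAACA at -177 (3.42% of windows), SOCS1 the E-box CAGGTG at -203 and SOCS3 an E-box at 40 (20.6%). JAK1 and STAT5A had 3 windows each and SOCS3 had 2. The matches of JAK1 and SOCS3 lay in 1 window of each gene. The glucocorticoid receptor letters ACANNNTGT, present in 5.37% of windows, were in none of these genes' windows. These matches describe the letters of the windows, and no binding was measured.

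IL7R was far above background on every control array and dim on every array labelled BTG1 shRNA. Its levels were 3.29 and 3.34 on the BTG1 shRNA prednisolone arrays and 3.12 and 3.30 on the BTG1 shRNA vehicle arrays, against 9.77 and 10.30 on the control prednisolone arrays and 9.96 and 10.53 on the control vehicle arrays. The 2 labels are separated by over 6 log2 units on every array. Under prednisolone the BTG1 shRNA label was lower by -6.72 (SE 0.26, limma adjusted p = 8.86e-06), at least 69.9-fold, and under vehicle by -7.04 (SE 0.26, limma adjusted p = 7.71e-06), at least 87.6-fold. The bounds set the control mean against the higher of the background and the measured signal, since a dim cluster gives only an upper limit. In bulk RNA, fewer cells with the transcript and less transcript per cell cannot be told apart.

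Prednisolone left no called change in IL7R on the control arrays, where the receptor was well measured. The difference between prednisolone and vehicle there was -0.21 (SE 0.26, limma adjusted p = 0.617), with a 95% interval of -0.81 to 0.39 and overlapping arrays. On the arrays labelled BTG1 shRNA the difference was 0.11, between groups that were both dim.

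IL2RG, whose cluster is annotated IL2RG;CXorf65, was above background on all 8 arrays. Its levels were 9.46 and 10.38 on the BTG1 shRNA prednisolone arrays and 10.08 and 10.40 on the BTG1 shRNA vehicle arrays, against 9.21 and 8.95 on the control prednisolone arrays and 9.15 and 9.86 on the control vehicle arrays. The arrays of the 2 labels did not overlap under either exposure, but the differences of 0.84 under prednisolone (SE 0.36, limma adjusted p = 0.175) and 0.74 under vehicle (SE 0.36, limma adjusted p = 0.222) were not called. With 1 array left out they ranged from 0.38 (without BTG1 shRNA prednisolone replicate 2) to 1.30 (without replicate 1 of that group) under prednisolone, and from 0.38 (without control vehicle replicate 1) to 1.09 (without control vehicle replicate 2) under vehicle, and none was called. The 95% interval for IL2RG under vehicle ran from -0.093 to 1.57, against -7.64 to -6.43 for IL7R. Prednisolone against vehicle gave -0.32 on the arrays labelled BTG1 shRNA (limma adjusted p = 1.00) and -0.42 on the control arrays (limma adjusted p = 0.516) for IL2RG.

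**Figure D1:**
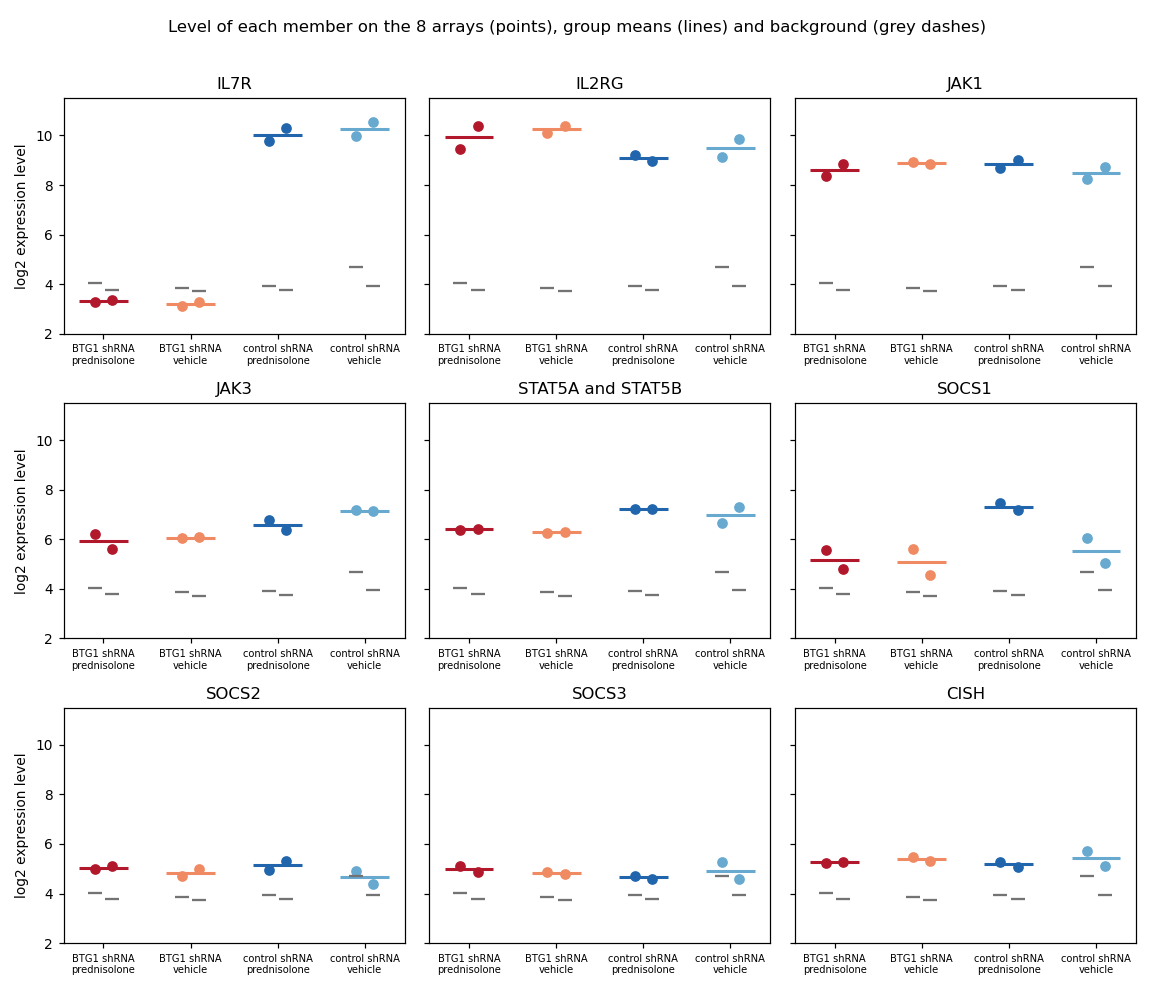
Log2 expression level of each cluster on each of the 8 arrays, 1 panel per gene and 1 point per array, with the arrays labelled BTG1 shRNA left of the control arrays. IL7R lies between 3.12 and 3.34 on the 4 BTG1 shRNA arrays and between 9.77 and 10.53 on the 4 control arrays. SOCS1 is highest on the 2 control prednisolone arrays, at 7.44 and 7.19.

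JAK1 and JAK3, the kinases bound to the 2 receptor chains, were above background on every array. JAK1 read 8.37 and 8.84 on the BTG1 shRNA prednisolone arrays and 8.93 and 8.85 on the BTG1 shRNA vehicle arrays, against 8.70 and 9.02 on the control prednisolone arrays and 8.24 and 8.72 on the control vehicle arrays. None of its comparisons was called: BTG1 shRNA against control shRNA gave -0.26 under prednisolone (limma adjusted p = 0.705) and 0.41 under vehicle (limma adjusted p = 0.302). With 1 array left out, the value under prednisolone ranged from -0.49 (without BTG1 shRNA prednisolone replicate 2) to -0.018 (without replicate 1 of that group), and that under vehicle from 0.17 (without control vehicle replicate 1) to 0.66 (without control vehicle replicate 2). Prednisolone against vehicle gave -0.29 on the arrays labelled BTG1 shRNA and 0.38 on the control arrays, and the test of that difference was not called (-0.67, SE 0.36, limma adjusted p = 0.546).

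JAK3 was lower on the arrays labelled BTG1 shRNA under vehicle. It read 6.19 and 5.63 on the BTG1 shRNA prednisolone arrays and 6.05 and 6.08 on the BTG1 shRNA vehicle arrays, against 6.76 and 6.39 on the control prednisolone arrays and 7.18 and 7.14 on the control vehicle arrays. All BTG1 shRNA arrays lay below all control arrays. The vehicle difference was -1.10 (SE 0.24, 2.14-fold, limma adjusted p = 0.0187), and the prednisolone difference of -0.66 was not called (SE 0.24, limma adjusted p = 0.106). The vehicle call was lost without either BTG1 shRNA vehicle array (limma adjusted p = 0.108 and 0.110) and without control vehicle replicate 1 (0.0588). On the control arrays the prednisolone values were below the vehicle values without overlap, by -0.58 (SE 0.24, limma adjusted p = 0.331).

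STAT5A and STAT5B lie side by side on chromosome 17, and both clusters for them carry both symbols, so the 2 factors could not be told apart. The cluster with the higher mean read 6.38 and 6.43 on the BTG1 shRNA prednisolone arrays and 6.26 and 6.29 on the BTG1 shRNA vehicle arrays, against 7.22 and 7.24 on the control prednisolone arrays and 6.66 and 7.32 on the control vehicle arrays. Every BTG1 shRNA array lay below every control array. Under prednisolone the difference was -0.83 (SE 0.23, 1.77-fold, limma adjusted p = 0.0476), just past the threshold, and it was kept, with an array left out, only without either control vehicle array, and lost when each array was centred on its median (limma adjusted p = 0.0839). Under vehicle it was -0.71 (SE 0.23, limma adjusted p = 0.0874), not called. It was -1.04 without control vehicle replicate 1 (limma adjusted p = 0.00982) and -0.39 without control vehicle replicate 2 (limma adjusted p = 0.116), each resting on 1 control vehicle array assumed to vary like the other groups, and it was not called in 7 of the 8 fits that left out an array.

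The other STAT5 cluster gave the same direction. It read 5.66 and 5.41 on the BTG1 shRNA prednisolone arrays and 5.53 and 5.42 on the BTG1 shRNA vehicle arrays, against 6.57 and 6.29 on the control prednisolone arrays and 6.58 and 6.38 on the control vehicle arrays. It was lower by -0.90 under prednisolone (SE 0.19, limma adjusted p = 0.0161) and by -1.01 under vehicle (SE 0.19, limma adjusted p = 0.0116). Prednisolone against vehicle was not called for either cluster: the first gave 0.12 on the arrays labelled BTG1 shRNA and 0.24 on the control arrays.

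SOCS1, which blocks JAK kinases directly, was the inhibitor that differed most. It read 5.55 and 4.79 on the BTG1 shRNA prednisolone arrays and 5.60 and 4.56 on the BTG1 shRNA vehicle arrays, against 7.44 and 7.19 on the control prednisolone arrays and 6.05 and 5.03 on the control vehicle arrays. The 2 control prednisolone arrays were above all the others, and the other 3 groups overlapped. Under prednisolone the BTG1 shRNA label was lower by -2.14 (SE 0.46, 4.42-fold, limma adjusted p = 0.0157), and under vehicle the difference was -0.46 (SE 0.46, limma adjusted p = 0.488). The call under prednisolone was lost without BTG1 shRNA prednisolone replicate 2 (limma adjusted p = 0.0969) and without either control prednisolone array (0.0761 and 0.0642).

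Prednisolone against vehicle gave 1.78 for SOCS1 on the control arrays (SE 0.46, 3.43-fold, 95% interval 0.71 to 2.85). Its arrays did not overlap, but it was not called over all clusters (limma unadjusted p = 0.00525, adjusted p = 0.137). An alternative fit with the replicate number as a block did call it (limma adjusted p = 0.0105). The labels do not say that same-numbered arrays belong together. Leaving out an array moved the value between 1.27 and 2.29 with adjusted p between 0.0948 and 0.564, and without control vehicle replicate 1 it was 2.29 (limma adjusted p = 0.124). On the arrays labelled BTG1 shRNA it was 0.09 (SE 0.46, 95% interval -0.98 to 1.16). The difference of the 2 responses was -1.69 (SE 0.65, 95% interval -3.20 to -0.18, limma adjusted p = 0.521), so a difference in response was not called.

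SOCS2, an inhibitor best known for limiting growth hormone signalling, was called in no comparison. It read 4.98 and 5.10 on the BTG1 shRNA prednisolone arrays and 4.71 and 4.97 on the BTG1 shRNA vehicle arrays, against 4.97 and 5.33 on the control prednisolone arrays and 4.92 and 4.38 on the control vehicle arrays. On the control arrays prednisolone was above vehicle without overlap, by 0.50 (SE 0.24, limma adjusted p = 0.402). Between the labels the values were -0.11 under prednisolone and 0.19 under vehicle.

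SOCS3, the inhibitor that acts at the gp130 receptor chain IL6ST, read 5.10 and 4.87 on the BTG1 shRNA prednisolone arrays and 4.89 and 4.78 on the BTG1 shRNA vehicle arrays, against 4.73 and 4.58 on the control prednisolone arrays and 5.27 and 4.59 on the control vehicle arrays. The differences between labels were 0.33 under prednisolone (limma adjusted p = 0.534) and -0.10 under vehicle (limma adjusted p = 0.787). Prednisolone against vehicle gave 0.15 on the arrays labelled BTG1 shRNA and -0.27 on the control arrays, and none of these was called.

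CISH, whose promoter carries the 4 STAT motifs shown above, had the smallest differences of the set between the labels. It read 5.24 and 5.29 on the BTG1 shRNA prednisolone arrays and 5.48 and 5.32 on the BTG1 shRNA vehicle arrays, against 5.27 and 5.07 on the control prednisolone arrays and 5.70 and 5.13 on the control vehicle arrays. The groups overlapped between labels under both exposures. BTG1 shRNA against control shRNA gave 0.090 under prednisolone (95% interval -0.44 to 0.62, limma adjusted p = 0.989) and -0.02 under vehicle (95% interval -0.54 to 0.51, limma adjusted p = 0.963). Prednisolone against vehicle gave -0.13 on the arrays labelled BTG1 shRNA and -0.24 on the control arrays. IL7R and CISH thus lie far apart in the vehicle comparison, at -7.04 and -0.02.

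**Figure D2:**
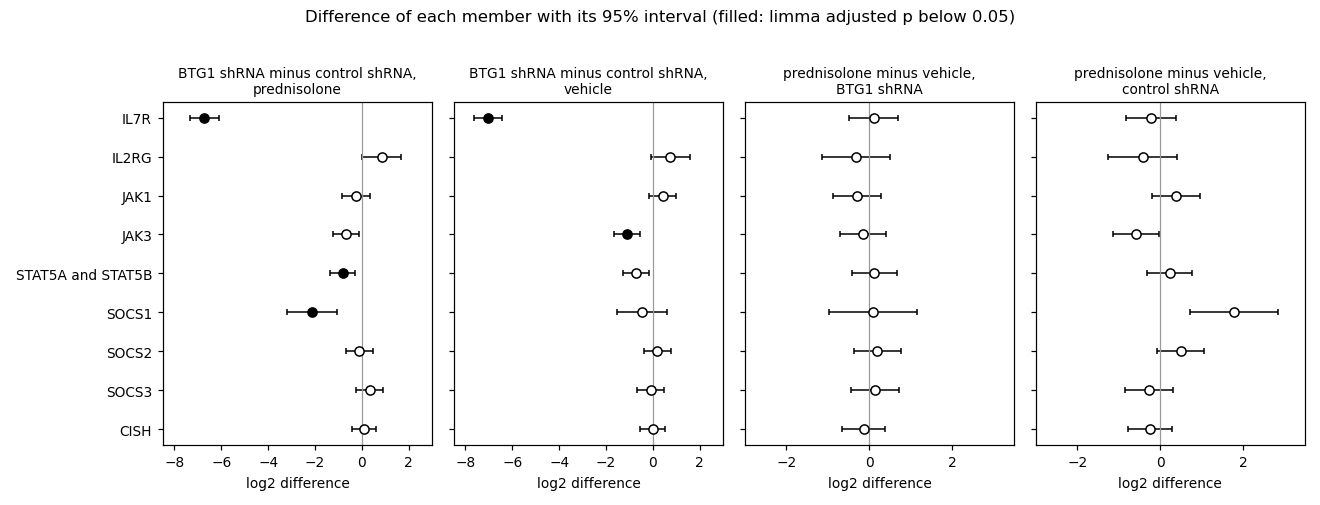
Log2 difference of each cluster in the 4 pairwise comparisons, with 95% intervals from the limma fit, the 2 panels between labels on a wider axis than the 2 for prednisolone. Filled points have an adjusted p below 0.05. IL7R lies below 0 between the labels, at -6.72 under prednisolone and -7.04 under vehicle, and all intervals of the prednisolone comparison on the arrays labelled BTG1 shRNA include 0.

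Counted over the 9 clusters, BTG1 shRNA against control shRNA called 3 lower and 0 higher under prednisolone (IL7R, STAT5A/STAT5B and SOCS1), where 7.51% of all clusters were lower. Under vehicle it called 2 lower and 0 higher (IL7R and JAK3), where 6.21% of all clusters were lower. The arrays did not overlap for 6 of 9 under prednisolone, where 49.9% of all clusters did not, and for 5 of 9 under vehicle, where 58.8% did not. The median difference was -0.26 under prednisolone, against 0.041 over all clusters, and -0.10 under vehicle, against -0.15 over all clusters.

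Prednisolone against vehicle called 0 of the 9 on the arrays labelled BTG1 shRNA, where limma called 0% of all clusters (0 of 17881, and 186 at an unadjusted p under 0.05). The smallest adjusted p there was 1.00, and 0 of the 9 passed an unadjusted p of 0.05. On the control arrays it called 0 of the 9 by limma, where 1.52% of all clusters were called, and 2 passed an unadjusted p of 0.05 (SOCS1 and JAK3). The arrays did not overlap for 4 of 9 on the arrays labelled BTG1 shRNA, where 28.5% of all clusters did not, and for 3 of 9 on the control arrays, where 41.7% did not. The median difference was 0.09 on the arrays labelled BTG1 shRNA, against 0.03 over all clusters, and -0.21 on the control arrays, against -0.16 over all clusters. The difference of the 2 responses was called for 0 of the 9 by limma, where 0.134% of all clusters were called, and 1 (SOCS1) passed an unadjusted p of 0.05. The 4 pairwise comparisons share groups of arrays, so their values are not independent of each other.

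The drug response of 2 glucocorticoid targets was seen on the control arrays. FKBP5, a co-chaperone of the glucocorticoid receptor whose cluster is annotated FKBP5;LOC285847, rose there by 2.70 (limma adjusted p = 0.0134) and differed by 0.34 on the arrays labelled BTG1 shRNA (limma adjusted p = 1.00). TSC22D3, the glucocorticoid-induced leucine zipper, rose on the control arrays by 2.67 (limma adjusted p = 0.00118) and differed by 0.99 on the arrays labelled BTG1 shRNA (limma adjusted p = 1.00). The limma test of the difference between the responses of the 2 labels was called for neither gene. The FKBP5 call was lost without control prednisolone replicate 2 (limma adjusted p = 0.130) and in the fit on the 4 control arrays alone (limma adjusted p = 0.0736).

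The ligands of the receptors that share a chain with IL7R or IL2RG were dim throughout. All 6 measured of 7 listed (IL7, TSLP, IL2, IL4, IL15 and IL21) were dim in all 4 groups, and 0 were called in any comparison. IL7, the ligand of IL7R, read 2.62 and 2.59 on the BTG1 shRNA prednisolone arrays and 2.57 and 2.59 on the BTG1 shRNA vehicle arrays, against 2.64 and 2.51 on the control prednisolone arrays and 2.87 and 2.63 on the control vehicle arrays.

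Of 5 measured receptor chains that pair with IL2RG or IL7R, IL21R was lower on the arrays labelled BTG1 shRNA under both exposures. In either direction, 17.5% of all clusters were called between the labels under prednisolone and 14.7% under vehicle. IL21R, the specific chain of the interleukin-21 receptor (cluster annotated IL21R;IL21R-AS1), read 4.51 and 3.77 on the BTG1 shRNA prednisolone arrays and 4.32 and 3.59 on the BTG1 shRNA vehicle arrays, against 7.60 and 7.22 on the control prednisolone arrays and 6.97 and 6.88 on the control vehicle arrays. The differences were -3.27 under prednisolone (SE 0.33, limma adjusted p = 0.000409) and -2.97 under vehicle (SE 0.33, limma adjusted p = 0.000752). IL4R, the interleukin-4 receptor chain, was higher by 0.69 under prednisolone (limma adjusted p = 0.033), a call kept, with an array left out, only without either control vehicle array, and lost under the filter on dim clusters. IL2RA was dim in all groups, and IL2RB and IL15RA were not called. This and the following gene lists were chosen with earlier results of these data known.

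Among 10 chains of receptors that signal through JAK1 without IL2RG, IL6ST alone was called with prednisolone on the control arrays. Over all clusters, 1.52% were called there. IL6ST, the gp130 chain of the interleukin-6 family receptors, read 4.87 and 5.78 on the BTG1 shRNA prednisolone arrays and 5.62 and 5.49 on the BTG1 shRNA vehicle arrays, against 8.22 and 8.88 on the control prednisolone arrays and 4.71 and 5.66 on the control vehicle arrays. Only the control prednisolone arrays were high. IL6ST rose with prednisolone on the control arrays by 3.36 (SE 0.41, limma adjusted p = 0.0113) and differed by -0.23 on the arrays labelled BTG1 shRNA (limma adjusted p = 1.00). The test of that difference was not called (-3.59, limma adjusted p = 0.0913), and the control call was lost without control prednisolone replicate 2 and in the fit on the 4 control arrays alone (highest adjusted p = 0.107).

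Under prednisolone 3 of the 10 receptor chains in this list were lower and 1 higher on the arrays labelled BTG1 shRNA, where 17.5% of all clusters were called in either direction. Lower were IL6ST (-3.23, limma adjusted p = 0.0014), the interferon-gamma receptor IFNGR1 (-1.58, limma adjusted p = 0.0376) and the interleukin-6 receptor IL6R (-1.51, limma adjusted p = 0.00235), and higher was the interleukin-10 receptor IL10RA (1.09, limma adjusted p = 0.0192). Under vehicle only IL6R of the 10 was called, lower by -1.68 (limma adjusted p = 0.00155), where 14.7% of all clusters were called. IFNGR1 lost its call under 7 of 13 alternatives, among them quantile normalization, centring and the loss of any array but control prednisolone replicate 1 or a control vehicle array, and IL10RA when any array of the contrast was left out. IL10RB and IFNAR2 share a cluster.

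Among 5 measured of 7 other JAK and STAT genes, STAT3 was higher on the arrays labelled BTG1 shRNA under both exposures. Between the labels, 17.5% of all clusters were called in either direction under prednisolone and 14.7% under vehicle. STAT3, the main transducer of interleukin-6 and interleukin-21 signals, read 10.27 and 10.37 on the BTG1 shRNA prednisolone arrays and 10.20 and 10.45 on the BTG1 shRNA vehicle arrays, against 9.02 and 8.68 on the control prednisolone arrays and 8.10 and 8.44 on the control vehicle arrays. The differences were 1.47 under prednisolone (limma adjusted p = 0.00251) and 2.05 under vehicle (limma adjusted p = 0.000551). STAT6, the interleukin-4 transducer, was lower under vehicle by -0.86 (limma adjusted p = 0.0183), a call lost without either BTG1 shRNA vehicle array. The fit on the 4 arrays of the contrast alone also lost the STAT6 call (limma adjusted p = 0.0754). STAT4, the interleukin-12 transducer, was higher under prednisolone (limma adjusted p = 0.0203), at least 1.17-fold since it was dim on the control arrays, a call lost without BTG1 shRNA prednisolone replicate 2 or either control prednisolone array. JAK2 gave -1.24 under prednisolone (limma adjusted p = 0.0518), and TYK2 was not called.

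Of 14 measured of 16 listed other inhibitors of the pathway, 3 were lower on the arrays labelled BTG1 shRNA under prednisolone, where 17.5% of all clusters were called in either direction, and 0 were called under vehicle, where 14.7% were. The 3 were PIAS1 (cluster annotated SKOR1;PIAS1;CALML4, -1.16, limma adjusted p = 0.0343), the phosphatase PTPN1 (-0.79, limma adjusted p = 0.033) and SOCS5 (-0.69, limma adjusted p = 0.0411). The phosphatase PTPN6 (SHP-1) fell with prednisolone on the control arrays by 0.96 (limma adjusted p = 0.0491), the 1 inhibitor called there, where 1.52% of all clusters were called. Each of the 3 calls between the labels was lost when any 1 array of the prednisolone groups was left out. Those of PIAS1 and SOCS5 were also lost without either BTG1 shRNA vehicle array, and in 7 and 8 of 13 alternatives in all. PTPN6 lost its call in 11 of 13 alternatives and kept it under the replicate block and without control vehicle replicate 2.

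Genes that STAT5 is known to activate or repress moved in both directions. Of 12 measured of 13 listed, 6 were higher and 3 lower on the arrays labelled BTG1 shRNA under prednisolone, and 3 were higher and 3 lower under vehicle. Over all clusters, 17.5% were called under prednisolone in either direction and 14.7% under vehicle. The list's median was 0.79 under prednisolone, against 0.041 over all clusters, and 0.13 under vehicle, against -0.15 over all clusters.

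Survival genes of the BCL2 family went opposite ways. BCL2L1, which encodes BCL-XL, read 9.06 and 8.85 on the BTG1 shRNA prednisolone arrays and 8.74 and 9.08 on the BTG1 shRNA vehicle arrays, against 7.22 and 7.05 on the control prednisolone arrays and 7.54 and 7.87 on the control vehicle arrays. It was higher by 1.82 under prednisolone (limma adjusted p = 0.000854) and by 1.21 under vehicle (limma adjusted p = 0.00739). BCL2 was lower by -1.54 under prednisolone (limma adjusted p = 0.00867) and by -2.21 under vehicle (limma adjusted p = 0.00182). The repressor BCL6, which STAT5 is known to repress, was lower by -2.18 under prednisolone (limma adjusted p = 0.000541) and by -3.32 under vehicle (limma adjusted p = 8.86e-05).

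Both D-type cyclins on the list were called. CCND2 was dim on the control arrays and higher on the arrays labelled BTG1 shRNA, at least 3.62-fold under prednisolone (limma adjusted p = 0.00126) and at least 1.61-fold under vehicle (limma adjusted p = 0.0134). CCND3 read 9.43 and 9.35 on the BTG1 shRNA prednisolone arrays and 9.74 and 9.41 on the BTG1 shRNA vehicle arrays, against 8.60 and 8.47 on the control prednisolone arrays and 10.46 and 10.25 on the control vehicle arrays. The arrays labelled BTG1 shRNA thus lay between the control groups. CCND3 fell with prednisolone on the control arrays by 1.82 (SE 0.19, limma adjusted p = 0.00661) and differed by -0.19 on the arrays labelled BTG1 shRNA (limma adjusted p = 1.00). The difference of responses was 1.63 and not called (limma adjusted p = 0.0981). Between the labels CCND3 was higher by 0.85 under prednisolone (limma adjusted p = 0.0188) and lower by -0.78 under vehicle (limma adjusted p = 0.0317). The CCND3 call for prednisolone on the control arrays was lost without control prednisolone replicate 2 (limma adjusted p = 0.0778), the call under prednisolone when any 1 array of the contrast was left out, and the call under vehicle when any 1 array other than control vehicle replicate 2 was left out. The fit on the 4 arrays of the contrast alone also lost the control call and the call under vehicle (limma adjusted p = 0.0715 and 0.120).

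The remaining called targets were ID1, an inhibitor of basic helix-loop-helix factors, MYC, PIM2 and OSM. ID1 was higher by 2.39 under prednisolone (limma adjusted p = 0.000611) and at least 5.41-fold under vehicle, where the controls were dim (limma adjusted p = 0.000529). MYC (0.93, limma adjusted p = 0.0137) and the kinase PIM2 (0.91, limma adjusted p = 0.0209) were higher under prednisolone. The cytokine OSM was lower under prednisolone (limma adjusted p = 0.00839), at least 1.28-fold, and dim on the arrays labelled BTG1 shRNA. PIM1, MCL1 and DUSP5 were called under neither exposure. Under prednisolone, MYC lost its call when any 1 array of the contrast was left out and when arrays were centred. PIM2 lost it without BTG1 shRNA prednisolone replicate 1 or control prednisolone replicate 2, and BCL2 without replicate 2 of either prednisolone group. OSM lost it without either BTG1 shRNA prednisolone array or control prednisolone replicate 1. Under vehicle, BCL2L1 and CCND2 lost theirs without BTG1 shRNA vehicle replicate 2 (limma adjusted p = 0.0807 and 0.107).

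**Figure D3:**
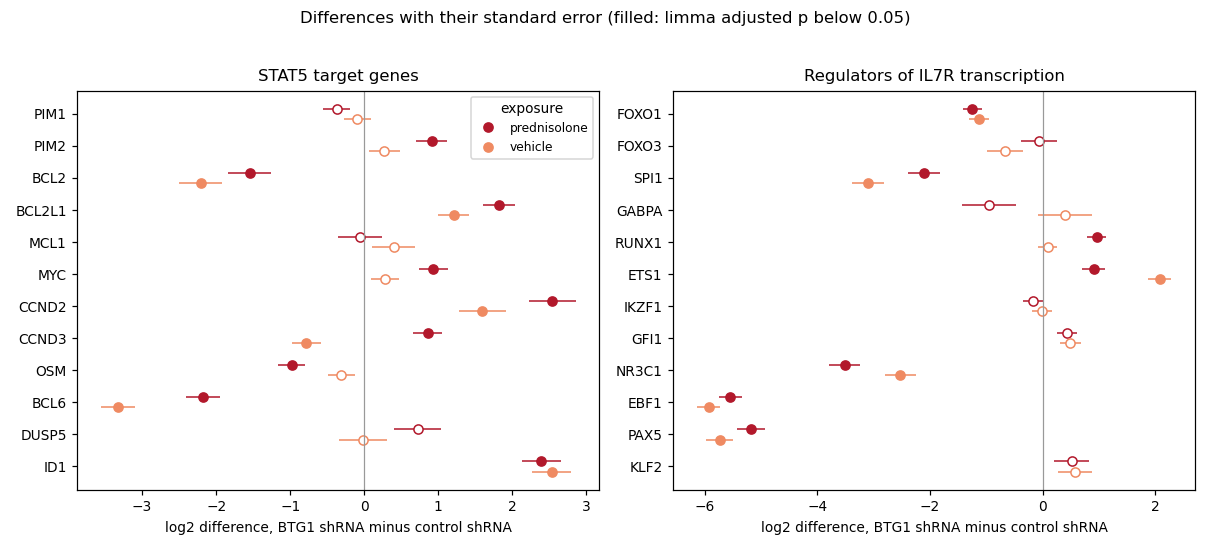
Log2 difference, BTG1 shRNA minus control shRNA, of 12 STAT5 target genes and 12 regulators of IL7R transcription under prednisolone and under vehicle, with standard errors. Filled points have a limma adjusted p below 0.05. EBF1 and PAX5 are the lowest of the regulators, at -5.55 and -5.18 under prednisolone and -5.93 and -5.74 under vehicle.

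All 12 listed regulators of IL7R transcription were measured, and they include the B-lineage factors whose levels separate the labels. EBF1, an early B-lineage factor, read 4.78 and 4.76 on the BTG1 shRNA prednisolone arrays and 4.37 and 4.29 on the BTG1 shRNA vehicle arrays, against 10.15 and 10.48 on the control prednisolone arrays and 10.05 and 10.47 on the control vehicle arrays. It was lower by -5.55 under prednisolone (limma adjusted p = 8.75e-06) and by -5.93 under vehicle (limma adjusted p = 7.32e-06). PAX5, which holds cells in the B lineage, was lower by -5.18 under prednisolone (limma adjusted p = 1.65e-05) and by -5.74 under vehicle (limma adjusted p = 1.17e-05). EBF1 and PAX5 also stand in the list of B-lineage markers.

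In all, 5 regulators were lower and 2 higher under prednisolone, and 5 were lower and 1 higher under vehicle, of 12 measured. Over all clusters, 17.5% were called in either direction under prednisolone and 14.7% under vehicle. The list's median was -0.56 under prednisolone, against 0.041 over all clusters, and -0.34 under vehicle, against -0.15 over all clusters. The other lower ones under both exposures were NR3C1, the glucocorticoid receptor (-3.51 under prednisolone, limma adjusted p = 0.000133, and -2.53 under vehicle, limma adjusted p = 0.000733), SPI1 (PU.1), an ETS-family factor known to act on Il7r in mouse (-2.10 under prednisolone, limma adjusted p = 0.00174, and -3.11 under vehicle, limma adjusted p = 0.000288), and FOXO1, known to drive Il7r in mouse lymphocytes (-1.25 under prednisolone, limma adjusted p = 0.00213, and -1.13 under vehicle, limma adjusted p = 0.00397). ETS1 was higher under both exposures, by 0.90 under prednisolone (limma adjusted p = 0.0211) and 2.08 under vehicle (limma adjusted p = 0.000452), and RUNX1 under prednisolone by 0.96 (limma adjusted p = 0.00668). ETS1 rose with prednisolone on the control arrays by 1.26 (limma adjusted p = 0.0336), a call lost in 9 of 13 alternatives, among them centring and the loss of any array but control vehicle replicate 2. Under prednisolone, the ETS1 call was lost when any 1 array of the contrast was left out and under centring, and that of RUNX1 without BTG1 shRNA prednisolone replicate 1 or control prednisolone replicate 2. The FOXO1 call under vehicle was lost without BTG1 shRNA vehicle replicate 2 (limma adjusted p = 0.0506). FOXO3, GABPA, IKZF1, GFI1 and KLF2 were called in no comparison.

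On the control arrays prednisolone also moved a few lineage markers beside these genes. LCK, a T-cell kinase, was lower with prednisolone (-1.20), as were CD22 (-1.59) and the adaptor BLNK (-1.53). These limma calls were not recomputed under the alternative fits. The other 10 T-cell and 10 B-lineage markers measured were not called. In that comparison 1.52% of all clusters were called. The T-cell markers summed to 456 to 540 on the control prednisolone arrays and 667 to 865 on the control vehicle arrays. The B-lineage markers summed to 7343 to 7463 on the control prednisolone arrays and 7895 to 9761 on the control vehicle arrays. Their part in the values above was not tested.

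The clusters whose 8 values were most like those of a member were found by the root mean square difference after each was centred on its own mean. For IL7R, whose group means spanned 7.04, they were CD9, a B-lineage marker (0.225), PRSS12 (0.229) and the class II antigen presentation gene HLA-DRA (0.260). CD9 read 4.30 to 4.72 on the arrays labelled BTG1 shRNA and 11.09 to 11.38 on the control arrays. For SOCS1, with a span of 2.23, they were LOXL4 (0.266), TACC2 (0.285) and RASD1 (0.288), all highest on the 2 control prednisolone arrays. For JAK3, with a span of 1.25, they were GRK2 (0.0804), TST (0.107) and PLOD1 (0.121), and for IL2RG, with a span of 1.16, MRPL46 (0.105), ZNF174 (0.131) and C20orf96 (0.140). These are descriptions over 8 arrays that share their groups.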

How the data were processed

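Gene expression was measured on 8 Affymetrix Human Exon arrays, 2 in each of 4 groups taken from the labels. Probes were summarised over core meta-probe sets built on hg18, per the labels, and the tools were RMA and Partek per the submitters' processing notes, with no version or setting given in the sources used here. As deposited, the table holds log2 values for 17881 clusters in which most decimal points were lost. Each was restored behind digit 1, or behind digit 2 for values with a leading 1, which moved the correlation between arrays to 0.872 to 0.995, against 0.446 to 0.587 as deposited. The unit thus differed from the plain log2 table that was assumed, and the tests were kept. In the platform annotation 1041 clusters had no symbol, 14432 had 1 and 2408 had several. RMA signals have no counting depth, and the number of arrays limits the precision.

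For every cluster, limma (version 3.58.1, R 4.3.3) estimated 4 group means from the 8 arrays with lmFit, then eBayes shared the spread (prior degrees of freedom 3.51, residual 4), with two-sided tests, 95% intervals and Benjamini-Hochberg adjustment over 17881 clusters at a threshold of 0.05. Each gene was read from its cluster with the highest mean. A bound for a dim cluster set the bright group's mean against the dim group's mean of the higher of background and signal. All members are named, with BTG1, NR3C1, FKBP5 and IL7 as checks and up to 4 genes per list and contrast with the smallest p. TSC22D3 and further list genes named as called, not called or dim were added after their values were seen. For likeness, the 3 single-symbol clusters nearest to IL7R and to the 3 other members with the widest range were taken. The members and the lists of ligands, receptors, JAK and STAT genes, inhibitors, STAT5 targets, IL7R regulators and lineage markers were chosen with earlier results of these data known. The scripts were tested on simulated data. Alternatives were quantile normalization, centring, a filter on dim clusters, the replicate number as a block, the other STAT5 cluster, the arrays of a contrast alone and leaving out each array. Motifs were searched in RefSeq promoter windows with Python 3.11.15.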

Additional observations from a re-analysis of the deposited data

How the results depend on the processing

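Of 581 values recomputed for the 9 clusters, 529 kept their direction and side of the threshold. A further 13 lost a call, 7 gained one and 32 changed sign. None of these sign changes was called, and none came from a main difference above 0.46 in size. The difference was fixed for 45 values under the filter, 45 under the block and 36 on the arrays of a contrast alone. It was also fixed in a pairwise comparison when the array left out lay outside it. In those fits only the call could change, so their kept directions add no support. IL7R was lower in both comparisons of the labels under every alternative run. The number of members called on the control arrays with prednisolone was 1 with the replicate number as a block (SOCS1, limma adjusted p = 0.0105) and 0 otherwise. With the block, 3 members were called between the labels under vehicle (STAT5A/STAT5B added, adjusted p = 0.0411) and 4 under prednisolone (JAK3 added, 0.0452). Between pairs of groups, same-numbered arrays deviated together with correlations of 0.263 to 0.593. The exception was BTG1 shRNA vehicle with control prednisolone, at 0.00722. Background was higher on replicate 1 than on replicate 2 in every group. The labels name no shared culture or batch, so the main fit did not pair the arrays by number. A replicate effect shared by the groups was not tested. Leaving out an array gave 1 to 3 members called between the labels under prednisolone (1 without BTG1 shRNA prednisolone replicate 2 or either control prednisolone array) and 1 to 2 under vehicle (1 without either BTG1 shRNA vehicle array). Quantile normalization called STAT5A/STAT5B under vehicle (-0.85, adjusted p = 0.0188), and centring called JAK3 under prednisolone (-0.79, 0.0449). The causes were not tested.

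Sign changes under quantile normalization were SOCS3 under vehicle (0.012), CISH under prednisolone (-0.044) and the CISH difference of responses (-0.025). Under centring they were CISH under prednisolone (-0.038) and vehicle (0.030), and the differences of responses of IL2RG (-0.067) and CISH (-0.067). The other STAT5 cluster gave -0.049 for prednisolone on the control arrays and 0.11 for the difference of responses. With 1 array left out, prednisolone on the control arrays gave IL7R -0.49 to 0.073, STAT5A/STAT5B -0.092 to 0.57, SOCS3 -0.61 to 0.067 and CISH -0.53 to 0.047. On the arrays labelled BTG1 shRNA it gave IL2RG -0.78 to 0.15, JAK3 -0.43 to 0.13 and SOCS1 -0.43 to 0.61. Between the labels under prednisolone it gave SOCS2 -0.29 to 0.078 and CISH -0.011 to 0.19, and under vehicle SOCS1 -0.98 to 0.067, SOCS2 -0.078 to 0.46, SOCS3 -0.44 to 0.24 and CISH -0.30 to 0.27. The difference of responses gave IL2RG -0.35 to 0.57, STAT5A/STAT5B -0.44 to 0.22 and CISH -0.18 to 0.39.

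Over all clusters, prednisolone on the control arrays called 271, with 755 under the block, 16 on those 4 arrays alone and 40 to 770 with an array left out. Between the labels, 3134 were called under prednisolone (1746 to 3891 with an array left out) and 2623 under vehicle (4553 with the block, 1289 to 5958 with an array left out). The difference of responses called 24, with 96 under the block, 54 under the filter, 14 under centring and 0 to 24 with an array left out. The median over all clusters for prednisolone on the control arrays was -0.16, and -0.05 after quantile normalization. For the difference of responses it was 0.20, and 0.06 after quantile normalization. Of 47 calls of other pathway genes, recomputed under 13 alternatives chosen after seeing the data, 24 held in all, 23 were lost in at least 1 and 0 changed sign. As described above, some of these alternatives could not change a sign. All 4 such calls on the control arrays with prednisolone were lost in at least 1. Signal over background limits IL7R, CCND2, STAT4, OSM and ID1 where a group was dim.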
